A study of Homo sapiens with 18 samples.

Results

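Death receptors are members of the tumour necrosis factor receptor family that carry a death domain inside the cell, and the caspase-8 complex is the group of proteins that assembles on that domain once a ligand binds outside. Expression of 10 genes of this machinery was followed in 3 human lung cell lines, chosen by symbol and matched to their Entrez identifiers. All 10 were among the 18475 genes of the table. They were the receptors FAS (Entrez 355), TNFRSF10A (8797), TNFRSF10B (8795), TNFRSF10C (8794), TNFRSF10D (8793) and TNFRSF1A (7132), the adaptor FADD (8772), the caspases CASP8 (841) and CASP10 (843), and the regulator CFLAR (8837). The lines were BEAS-2B, labelled lung epithelial, A549, labelled lung adenocarcinoma, and H446, labelled small cell lung cancer, all wild type. Each line had 3 control libraries and 3 libraries of cells harvested 24 h after 10 Gy of X-rays, which gives 18 libraries in 6 groups. The controls are titled as before irradiation and their labels give no harvest time, so time in culture and irradiation cannot be told apart. The question was how the response to ionizing radiation differs between the epithelial line and the cancer lines.

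When Fas ligand binds FAS, or TRAIL binds TNFRSF10A or TNFRSF10B, the receptor gathers FADD, and FADD gathers procaspase-8 and procaspase-10, which then activate each other. TNFRSF10C and TNFRSF10D bind TRAIL without a working death domain and are called decoy receptors. TNFRSF1A, the main receptor for tumour necrosis factor, first builds a signalling complex that activates NF-kB and reaches caspase-8 only later. CFLAR encodes cFLIP, a relative of caspase-8 without protease activity that competes for FADD. FAS and the TRAIL receptor genes are known targets of p53, the transcription factor that DNA damage stabilizes.

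In the GENCODE annotation 29 of GRCh38, CFLAR (chr2:201116104-201176687), CASP10 (chr2:201182881-201229406) and CASP8 (chr2:201233443-201287711) lie side by side on the plus strand. FAS lies at chr10:88990582-89015785 on the plus strand. RefSeq promoter windows on GRCh38.p14, from 250 bases before to 50 bases after a transcript start, were found for 5 of the 10 genes (FAS, TNFRSF1A, FADD, CASP8 and CFLAR), with 12 start sites between them. Both strands were searched for the GC box GGGCGG, the TATA box TATAAA, the p53 half-site of 10 bases and the NF-kB site of 10 bases. A GC box was found in 7 of the 12 windows, against 44.95% of all 35116 windows, and a p53 half-site in 2, 1 of FAS and 1 of CASP8, against 6.632%. The NF-kB letters were found in 2 windows, 1 of FAS and 1 of CFLAR, against 11.27% of all windows, and the TATA box in 1 window of CASP8, against 11.53%. A match describes letters in the window and is not evidence of binding. The 30 bases around the GC box of the first listed start site are shown for FAS, which had the largest called rise, and for CFLAR, which had the largest called fall, in A549 cells. FAS is read at chr10:88990726-88990755 and CFLAR at chr2:201118607-201118636, both on the plus strand, with the matched letters in capitals. In CFLAR the capitals run on past the GC box because the NF-kB letters overlap it.
FAS: ctggagcctcagGGGCGGgcactggcacgg
CFLAR: tgcgcgggGGGCGGGGAATTCCgcagacag

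Values are FPKM, reads scaled by the length of the transcript and by the mapped reads of the library, so levels can be compared between genes per length. The unit was inferred from the values, and reads of splice forms of a gene were summed, so that long and short cFLIP or membrane and soluble FAS cannot be told apart. The library labelled BEAS-2B 10 Gy replicate 2 stood apart from the other irradiated BEAS-2B libraries. CDKN1A, the p53 target that encodes the cell cycle inhibitor p21, stood at 79.93, 86.36 and 86.08 FPKM in the BEAS-2B controls and at 309.73, 102.24 and 487.79 FPKM in the irradiated BEAS-2B libraries. MDM2, the p53 target that encodes the ubiquitin ligase of p53, stood at 18.86, 17.46 and 18.24 FPKM in those controls and at 47.49, 16.17 and 87.83 FPKM after irradiation. Replicate 2 was thus near the control libraries for both genes. Fold changes, counts, shares and ratios of the members in BEAS-2B are given with and without it. It was singled out by p53 targets, and FAS and the TRAIL receptor genes are p53 targets too, so leaving it out selects on a related outcome. Values without it are therefore a description and no independent support for a rise of these receptors. That library also had the steepest trend on transcript GC content of the line (rank correlation 0.705), whose part in its values was not tested. CDKN1A rose 2.93-fold in A549 cells (103.3 to 303.0 FPKM, limma adjusted p = 8.33e-11), and its H446 means were 73.4 and 67.3 FPKM (limma adjusted p = 0.0642, and under 0.05 without 10 Gy replicate 1, with library quality weights or with a replicate block). Relative depth, read from the steps between low values, lay between 0.907 and 1.07 over the 18 libraries. Of 6 epithelial markers, 5 had a mean of at least 1 FPKM in each group. KRT7, KRT8 and KRT18 were high throughout, KRT19 had means from 1.65 FPKM in irradiated H446 to 26.2 FPKM in A549 controls, CDH1 was below 1 FPKM in BEAS-2B and H446 (0.46 to 0.71), and EPCAM was at 0.487 and 0.393 FPKM in A549. Of the blood cell markers, PTPRC had group means of at most 0.06 FPKM and LYZ of at most 0.307 FPKM, while CD14 was at 8.13 and 8.36 FPKM in control and irradiated BEAS-2B, at 1.02 FPKM in irradiated A549 and at 0.277 to 0.427 FPKM in the other groups. Of the neuroendocrine markers that often mark small cell lung cancer, CHGA, SYP, NCAM1 and DLL3 had means of at most 0.323 FPKM in H446, so these markers of the labelled tumour type were at or near 0. Some of them were higher in the lines without that label, with NCAM1 at 4.66 and DLL3 at 2.01 FPKM in BEAS-2B controls and DLL3 at 3.81, SYP at 1.99 and CHGA at 1.01 FPKM in A549 controls. Of the fibroblast markers, COL1A1 had means from 4.19 to 9.14 FPKM over the 6 groups, PDGFRB was at 11.7 FPKM in BEAS-2B controls and 0.01 FPKM in H446 controls, DCN was at 0.01 FPKM in BEAS-2B controls and 3.27 FPKM in H446 controls, and COL1A2 was at most 0.507 FPKM. In RNA from whole cultures, a lower share of expressing cells and less RNA per cell cannot be told apart.

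In control cells the lines already differed in this machinery. Of the 10 genes, 8 differed between A549 and BEAS-2B controls, 7 of them higher in A549, at an adjusted p under 0.05 (limma on log2(FPKM + 1), Benjamini-Hochberg over 13071 genes). The background was 83.8% of all genes tested, with 38.3% higher and 45.4% lower. H446 differed from BEAS-2B in 8 of 10 (background 81.1%), 5 higher (35.2%) and 3 lower (45.9%). It differed from A549 in 10 of 10 (background 83.2%), 3 higher (40.5%) and 7 lower (42.7%), of which TNFRSF1A and TNFRSF10C lost the call after quantile normalization (limma adjusted p = 0.627 and 0.988). TNFRSF1A lost it also without A549 control replicate 3 (0.0545), and TNFRSF10C with no filter (0.0649) and without H446 control replicate 1 or 2 or A549 control replicate 2 or 3 (0.0693 to 0.175). The shares of A549 and H446 against BEAS-2B were near the background, since the lines differed in most genes.

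FAS was most abundant in H446 controls, at 14.30, 14.48 and 14.16 FPKM. The A549 controls followed with 7.38, 6.31 and 6.39 FPKM and the BEAS-2B controls with 4.48, 4.05 and 3.82 FPKM, so that no control library of one line overlapped another. H446 exceeded A549 by 0.996 ± 0.167 (standard error) on the log2 scale (limma adjusted p = 2.05e-05), and A549 exceeded BEAS-2B by 0.59 ± 0.17 (limma adjusted p = 0.00325). TNFRSF10B, the more abundant of the 2 death-inducing TRAIL receptors in every group, had another order. It stood at 80.14, 83.81 and 80.78 FPKM in A549 controls, at 36.06, 36.54 and 36.56 FPKM in H446 controls, and at 25.89, 26.43 and 26.68 FPKM in BEAS-2B controls. TNFRSF10A kept that order, at means of 12.8, 8.44 and 3.45 FPKM. TNFRSF1A was high in both cancer lines, with control means of 110.0 FPKM in H446 and 96.1 FPKM in A549 against 58.7 FPKM in BEAS-2B.

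CASP8 was also highest in A549 controls, at 37.82, 40.67 and 39.73 FPKM. It stood at 22.89, 23.75 and 23.60 FPKM in H446 controls and at 11.99, 12.29 and 11.39 FPKM in BEAS-2B controls. Its A549 level exceeded the BEAS-2B level by 1.65 ± 0.05 on the log2 scale (limma adjusted p = 3.63e-16). CFLAR, the competitor of caspase-8, was high in A549 controls as well, at 73.94, 70.75 and 69.99 FPKM. It was 22.96, 20.37 and 24.19 FPKM in BEAS-2B controls and 19.92, 18.18 and 20.07 FPKM in H446 controls. The H446 and BEAS-2B levels of CFLAR were nearest to each other (−0.20 ± 0.06, limma adjusted p = 0.00407), and that call was lost after rescaling to equal totals. FADD varied least between lines, with control means of 22.4 FPKM in BEAS-2B, 21.7 FPKM in H446 and 17.1 FPKM in A549. Its BEAS-2B and H446 levels did not differ beyond their spread (limma adjusted p = 0.613). CASP10 was scarce throughout, at control means of 2.22, 1.45 and 2.59 FPKM in BEAS-2B, H446 and A549. TNFRSF10C was lower still, with no control library above 1.12 FPKM, so its order between lines carries little weight.

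**Figure D1:**
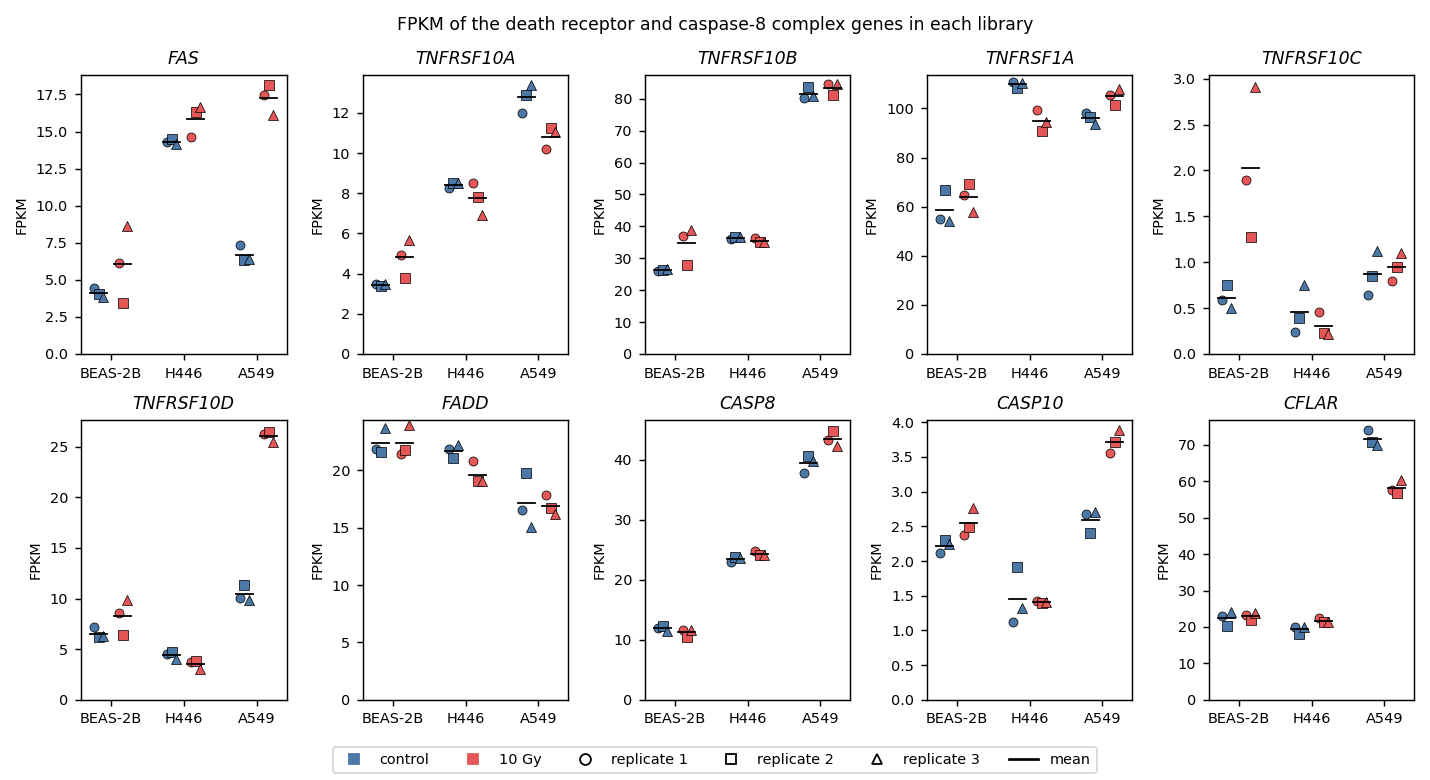
FPKM (y axis, from 0) of each of the 10 genes in the 3 lines (x axis), with 1 point per library, blue for control and red for 10 Gy, the marker shape for the replicate number and a bar for the mean of 3 libraries. FAS and TNFRSF10D stand clearly higher in the 3 irradiated A549 libraries than in the 3 controls, CFLAR stands lower there, and the square of the irradiated BEAS-2B group lies below the other 2 irradiated libraries for FAS and the 4 TRAIL receptor genes.

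In A549 cells FAS and the decoy receptor gene TNFRSF10D rose by the largest factors of the 9 genes tested, and CFLAR fell. The test took genes that reached 1 FPKM in 3 or more of the 6 libraries of a line, and of the 9 members that did so 7 changed, 5 of them higher and 2 lower. The background was 51.7% of the 11993 genes tested, with 25.3% higher and 26.4% lower. The median log2 fold change of the 9 genes was 0.12, against 0.00 over all genes. All irradiated libraries lay above all controls for 5 of the 9 (background 29.0%) and below them for 2 (29.5%). TNFRSF10C did not pass the filter and stood between 0.64 and 1.12 FPKM in all 6 A549 libraries.

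FAS stood at 7.38, 6.31 and 6.39 FPKM in A549 controls and at 17.46, 18.11 and 16.14 FPKM after irradiation. Every irradiated library was more than any control, and the mean rose 2.58-fold (log2 fold change 1.25 ± 0.07, limma adjusted p = 3.33e-08). TNFRSF10D, a decoy receptor for TRAIL, rose by nearly the same factor. It stood at 10.06, 11.32 and 9.90 FPKM in controls and at 26.21, 26.44 and 25.47 FPKM after irradiation, a 2.50-fold rise of the mean (log2 fold change 1.24 ± 0.05, limma adjusted p = 6.98e-09). Neither death-inducing TRAIL receptor was called higher. TNFRSF10B was 80.14, 83.81 and 80.78 FPKM in controls and 84.54, 81.30 and 84.66 FPKM after irradiation, with overlapping groups (0.03 ± 0.04, limma adjusted p = 0.471). TNFRSF10A fell from 12.02, 12.88 and 13.41 FPKM to 10.18, 11.25 and 11.05 FPKM (−0.22 ± 0.06, limma adjusted p = 0.00739), a call that was lost with all 18 libraries in 1 fit (adjusted p = 0.0628). TNFRSF1A was slightly higher, from 98.20, 96.47 and 93.76 FPKM to 105.40, 101.37 and 108.00 FPKM (0.12 ± 0.04, limma adjusted p = 0.0154). Its call was lost without control replicate 3 (adjusted p = 0.062), without 10 Gy replicate 3 (0.0523), without the limma trend (0.0514) and with all 18 libraries in 1 fit (0.162).

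Inside the A549 cell, both caspases and their competitor moved in opposite directions. CFLAR fell from 73.94, 70.75 and 69.99 FPKM to 57.50, 56.75 and 60.35 FPKM (−0.29 ± 0.04, limma adjusted p = 7.55e-05). CASP8 rose from 37.82, 40.67 and 39.73 FPKM to 43.38, 44.86 and 42.26 FPKM (0.14 ± 0.04, limma adjusted p = 0.0155). The groups of both genes did not overlap, but the CASP8 call was lost without control replicate 1 (adjusted p = 0.0815) or without 10 Gy replicate 2 (0.0603). CASP10 rose from 2.68, 2.40 and 2.70 FPKM to 3.56, 3.71 and 3.89 FPKM (0.39 ± 0.07, limma adjusted p = 0.000644). FADD, which links receptor and caspase, was 16.56, 19.76 and 15.06 FPKM in controls and 17.83, 16.75 and 16.22 FPKM after irradiation (−0.01 ± 0.08, limma adjusted p = 0.94).

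In H446 cells the changes were small. Of 9 genes tested, 4 changed, 1 higher and 3 lower, against a background of 38.4% of the 11479 genes tested (14.8% higher and 23.6% lower), so their share was near that of all genes. The median of the 9 genes was −0.03 and that of all genes −0.03. The trend of values on transcript GC content also separated the H446 groups, with a rank correlation between 0.347 and 0.459 in the controls and between −0.496 and −0.106 after irradiation. Of the 9 genes, 3 had all irradiated libraries above all controls (background 20.4%) and 3 had them all below (29.9%). With the GC trend removed, 2 of the 9 genes were called, TNFRSF1A and TNFRSF10D, against 3694 of all 11479 genes.

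TNFRSF1A fell in H446 from 110.99, 108.51 and 110.54 FPKM to 99.47, 90.91 and 94.55 FPKM, with no overlap (−0.21 ± 0.04, limma adjusted p = 0.00221). TNFRSF10D was lower, from 4.53, 4.69 and 4.04 FPKM to 3.76, 3.82 and 3.08 FPKM (−0.25 ± 0.08, limma adjusted p = 0.0333), and lost its call without control replicate 1 or 2 or 10 Gy replicate 3 (adjusted p from 0.0946 to 0.115), after quantile normalization (0.101), with no filter (0.0887) and with all 18 libraries in 1 fit (0.0818). This decoy receptor thus had a different sign in the 2 cancer lines. CFLAR was higher in H446, from 19.92, 18.18 and 20.07 FPKM to 22.58, 21.23 and 21.38 FPKM (0.16 ± 0.05, limma adjusted p = 0.0285), and FADD was lower, from 21.91, 21.06 and 22.20 FPKM to 20.81, 19.08 and 19.04 FPKM (−0.14 ± 0.05, limma adjusted p = 0.0394). Neither of these calls held with the GC trend removed (adjusted p = 0.155 for CFLAR and 0.451 for FADD), without control replicate 2 (0.122 and 0.0562), or with all 18 libraries in 1 fit (0.0539 and 0.178). With no filter both were lost too (0.0561 and 0.0655). CFLAR also lost its call without 10 Gy replicate 1 (0.0697), and FADD without control replicate 1 or 3 or 10 Gy replicate 2 or 3 (0.108 to 0.124), after quantile normalization (0.0936), with equal totals (0.0869) and without the limma trend (0.0606). FAS was 14.30, 14.48 and 14.16 FPKM in controls and 14.64, 16.31 and 16.62 FPKM after irradiation. The groups did not overlap, but the difference did not pass the test (0.14 ± 0.05, limma adjusted p = 0.0651). It passed without 10 Gy replicate 1 (0.19, adjusted p = 0.00841), after quantile normalization (0.16, adjusted p = 0.0401), with equal totals (0.16, adjusted p = 0.0498) and with library quality weights (0.15, adjusted p = 0.0289), and with the GC trend removed it was at 0.03 (adjusted p = 0.627). TNFRSF10A, TNFRSF10B, CASP8 and CASP10 had log2 fold changes between −0.11 and 0.05 and did not pass, and TNFRSF10C was at most 0.75 FPKM.

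In BEAS-2B cells no gene of the table passed the test with all 6 libraries, so none of the 10 members did (0 of 10, background 0% of 11734 genes, limma). At an unadjusted p under 0.05 there were 1446 genes of the table and 3 of the 10, of which 1 was TNFRSF10C. The means of the 6 receptor genes were higher in the irradiated group. FAS was 4.48, 4.05 and 3.82 FPKM in controls and 6.15, 3.47 and 8.64 FPKM after irradiation, where replicate 2 was below every control. TNFRSF10A was 3.49, 3.37 and 3.49 FPKM in controls and 4.94, 3.79 and 5.69 FPKM after irradiation. TNFRSF10B was 25.89, 26.43 and 26.68 FPKM in controls and 37.04, 28.03 and 38.96 FPKM after irradiation. For both death-inducing TRAIL receptors the groups did not overlap, although replicate 2 stood just above the controls.

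The decoy receptors of BEAS-2B varied in the same libraries. TNFRSF10D was 7.17, 6.19 and 6.28 FPKM in controls and 8.61, 6.42 and 9.83 FPKM after irradiation. TNFRSF10C was 0.59, 0.75 and 0.50 FPKM in controls and 1.90, 1.27 and 2.91 FPKM after irradiation, with a log2 fold change of 0.87 ± 0.17 (limma adjusted p = 0.241). It entered the test only through the irradiated libraries, so a higher value there was fixed by the filter, and it is the scarcest of 4 related genes that may share reads. Over the 9 genes other than TNFRSF10C, 3 had all irradiated libraries above all controls (TNFRSF10A, TNFRSF10B and CASP10) and 0 had them all below, against 7.48% above and 8.87% below of all genes. Without replicate 2 these were 5 of 9, with FAS and TNFRSF10D added, and 0 of 9, against 13.7% above and 13.2% below.

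Without BEAS-2B 10 Gy replicate 2, 3 of 9 genes were called higher, where 1.99% of the 11680 genes tested were called. Since that library was chosen by p53 targets, nothing is read from the comparison of these shares. The 3 genes were FAS (0.70 ± 0.13, limma adjusted p = 0.0199), TNFRSF10A (0.50 ± 0.10, adjusted p = 0.0254) and TNFRSF10B (0.51 ± 0.08, adjusted p = 0.00607). TNFRSF10D was at 0.44 ± 0.10 and just missed (limma adjusted p = 0.0594). With all libraries the means of FAS, TNFRSF10A, TNFRSF10B and TNFRSF10D rose 1.48-fold, 1.39-fold, 1.32-fold and 1.27-fold. Without replicate 2 they rose 1.80-fold, 1.54-fold, 1.44-fold and 1.41-fold. Leaving out any of the other 5 libraries in place of replicate 2 gave no call among the members, and without 10 Gy replicate 3 FAS was at 0.15, TNFRSF10A at 0.26 and TNFRSF10B at 0.28 (adjusted p = 0.584, 0.191 and 0.155). TNFRSF10C no longer passed the filter on low values in these 5 libraries. With no filter, an alternative chosen after the data were seen, it rose by 1.06 ± 0.14 (adjusted p = 0.0435), TNFRSF10B was still called (adjusted p = 0.0227), and FAS (0.14) and TNFRSF10A (0.0975) were not, with 0.895% of 16983 genes called. With all 18 libraries in 1 fit, which pools the spread of the lines, TNFRSF10A (limma adjusted p = 0.0233) and TNFRSF10B (0.0109) of BEAS-2B were called with replicate 2 kept. That fit called 861 of the 11734 genes. The caspase-8 complex of BEAS-2B had no call with or without that library. With all 6 libraries CASP8 was at −0.08 ± 0.08, CFLAR at 0.03 ± 0.08, FADD at 0.00 ± 0.08 and CASP10 at 0.14 ± 0.09 on the log2 scale. Without replicate 2 they were at −0.03 ± 0.08, 0.07 ± 0.09, 0.01 ± 0.09 and 0.15 ± 0.10. TNFRSF1A was at 0.12 ± 0.10 (limma adjusted p = 0.603) and at 0.06 ± 0.10 without replicate 2.

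**Figure D2:**
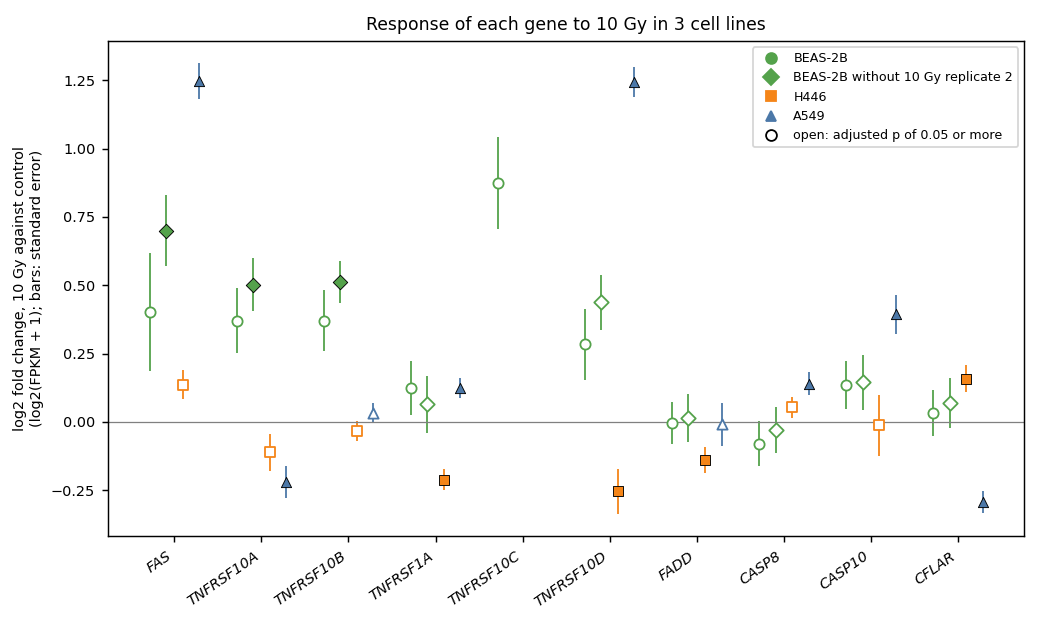
Log2 fold change of 10 Gy against control on the log2(FPKM + 1) scale (y axis) for each gene (x axis) by line, with bars for the standard error of limma, filled markers for an adjusted p under 0.05 and diamonds for BEAS-2B without 10 Gy replicate 2. FAS and TNFRSF10D of A549 reach 1.25 and 1.24, TNFRSF10A and TNFRSF10B are filled only for the BEAS-2B diamonds and, below 0, for TNFRSF10A of A549, and TNFRSF10C is drawn only where it passed the filter, in BEAS-2B with all libraries.

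Whether the lines responded differently was tested in 1 fit of all 18 libraries, in which each response is the irradiated minus the control mean of a line. The 3 comparisons share libraries and are given side by side. The fit takes a single spread per gene over all lines, while FAS and the TRAIL receptor genes varied more in irradiated BEAS-2B. TNFRSF10B had an SD of 5.84 FPKM there, against 0.76 in irradiated H446 and 1.91 in irradiated A549. For BEAS-2B, 0 of 11734 genes were called from its own libraries and 861 in this fit. Errors and p-values of differences that involve BEAS-2B may therefore be too small. Between A549 and H446, 5 of the 10 genes differed in response (background 34.6%), 4 higher in A549 (19.3%) and 1 lower (15.3%). FAS differed by 1.11 ± 0.24 (limma adjusted p = 0.00146) and TNFRSF10D by 1.50 ± 0.15 (limma adjusted p = 9.48e-07). CASP10 (0.41 ± 0.12, limma adjusted p = 0.0155) and TNFRSF1A (0.34 ± 0.10, limma adjusted p = 0.0141) were also higher in A549, the latter not after rescaling to equal totals (adjusted p = 0.0507). CFLAR was lower (−0.45 ± 0.08, limma adjusted p = 0.000475), with a log2 fold change of −0.29 in A549 and 0.16 in H446.

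Between BEAS-2B and A549, 6 of the 9 genes other than TNFRSF10C differed in response (background 30.6%), 3 higher (16.0%) and 3 lower (14.6%) in BEAS-2B. TNFRSF10C is left out of the count because its higher values in irradiated BEAS-2B were fixed by the filter. The death-inducing TRAIL receptors responded more in BEAS-2B, by 0.59 ± 0.13 for TNFRSF10A (limma adjusted p = 0.00256) and by 0.34 ± 0.11 for TNFRSF10B (limma adjusted p = 0.0261). FAS (−0.84 ± 0.24, limma adjusted p = 0.0115) and TNFRSF10D (−0.96 ± 0.15, limma adjusted p = 0.000136) responded less. CFLAR was higher in BEAS-2B (0.33 ± 0.08, limma adjusted p = 0.00664), and CASP8 was lower (−0.22 ± 0.07, limma adjusted p = 0.0257). Without BEAS-2B 10 Gy replicate 2 (background 30.0%) the differences of TNFRSF10A (0.72), TNFRSF10B (0.48), FAS (−0.55), TNFRSF10D (−0.81) and CFLAR (0.36) were still called, that of CASP8 was not (−0.17, adjusted p = 0.0596). The TNFRSF10B call was also lost after quantile normalization (adjusted p = 0.0838) and without BEAS-2B control replicate 1, BEAS-2B 10 Gy replicate 1 or 3, A549 control replicate 2 or A549 10 Gy replicate 2 (0.0546 to 0.073), and the CASP8 call without BEAS-2B control replicate 1, A549 control replicate 1 or A549 10 Gy replicate 2 (0.0524 to 0.0719), with equal totals (0.0837) and with the GC trend removed (0.0841).

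Between BEAS-2B and H446, 4 of the same 9 differed (background 22.7%), all 4 higher in BEAS-2B (13.7% higher and 8.99% lower over all genes). TNFRSF10D differed by 0.54 ± 0.15 (limma adjusted p = 0.0172), TNFRSF10A by 0.48 ± 0.13 (limma adjusted p = 0.0152), TNFRSF10B by 0.40 ± 0.11 (limma adjusted p = 0.0149) and TNFRSF1A by 0.34 ± 0.10 (limma adjusted p = 0.0228). FAS did not differ beyond the error with all libraries (0.27 ± 0.24, limma adjusted p = 0.432) and did without BEAS-2B 10 Gy replicate 2 (0.56 ± 0.13, limma adjusted p = 0.0081, background 18.5%), while without BEAS-2B 10 Gy replicate 3 it was at 0.0093 (adjusted p = 0.977). TNFRSF10A (0.61), TNFRSF10B (0.55) and TNFRSF10D (0.69) were still called without BEAS-2B 10 Gy replicate 2. TNFRSF1A was not called without BEAS-2B 10 Gy replicate 2 (0.28, adjusted p = 0.0562), with equal totals (adjusted p = 0.0514) or with the GC trend removed (0.18, adjusted p = 0.129). Nor was it called without BEAS-2B control replicate 1 or 3 or H446 10 Gy replicate 2 (0.0571 to 0.0686). The TNFRSF10D call was lost without H446 10 Gy replicate 3 (0.46, adjusted p = 0.0517).

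The 4 TRAIL receptor genes lie within 204994 bases of each other on chromosome 8. Their levels can be read together, as the share of the decoys TNFRSF10C and TNFRSF10D in the summed FPKM of all 4. In A549 the decoys made up 10.7% ± 0.4 (SD, n = 3) in controls and 22.3% ± 0.6 after irradiation, and no library of one group reached the other. The sum itself went from 105.6 ± 3.0 to 121.3 ± 1.2 FPKM. In BEAS-2B the sum went from 36.9 ± 0.2 to 49.8 ± 9.2 FPKM while the decoy share was 19.4% ± 1.3 and 20.6% ± 1.4. Without 10 Gy replicate 2 the 2 irradiated libraries had sums of 52.49 and 57.39 FPKM and shares of 20.0% and 22.2%. In H446 the share was 9.82% ± 0.28 in controls and 8.16% ± 0.75 after irradiation, at sums of 49.7 and 47.2 FPKM. The exact 2-sided permutation test of the share gave p = 0.1 in A549 and H446, the smallest that 3 against 3 libraries can give, and p = 0.4 in BEAS-2B.

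**Figure D3:**
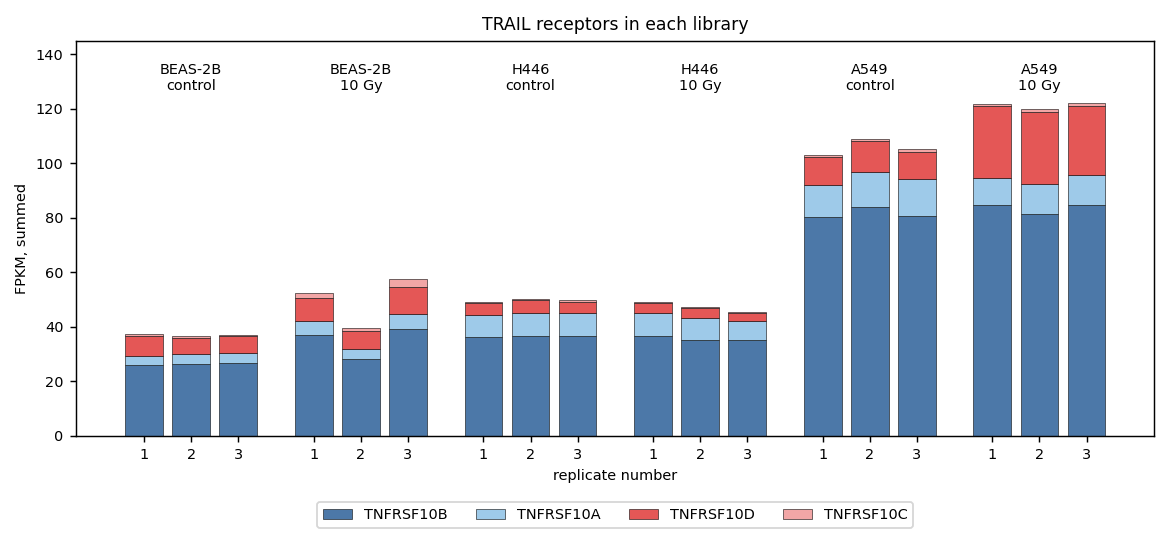
Summed FPKM (y axis, from 0) of the 4 TRAIL receptor genes in each of the 18 libraries (x axis, replicate number within each group), with death-inducing receptors in blue and decoys in red. The red part goes from 10.7% to 22.3% of the bar on average between A549 control and A549 10 Gy, while the second irradiated BEAS-2B bar, at 39.51 FPKM, is near the controls.

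CFLAR relative to CASP8 was lower in H446 than in the other 2 lines, and in A549 it was lower after irradiation. The ratio of their FPKM was 1.90 ± 0.23 (SD, n = 3) in BEAS-2B controls, 1.82 ± 0.12 in A549 controls and 0.829 ± 0.056 in H446 controls. After irradiation it was 1.34 ± 0.08 in A549, below every A549 control (exact permutation p = 0.1, the smallest possible). It was 2.05 ± 0.05 in irradiated BEAS-2B, within the control range of 1.66 to 2.12 (exact permutation p = 0.4), with a mean of 2.03 over the 2 libraries other than replicate 2, and 0.892 ± 0.018 in irradiated H446, above its controls (exact permutation p = 0.1). H446 was thus the only line of the 3 in which CASP8 exceeded CFLAR in every library.

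**Figure D4:**
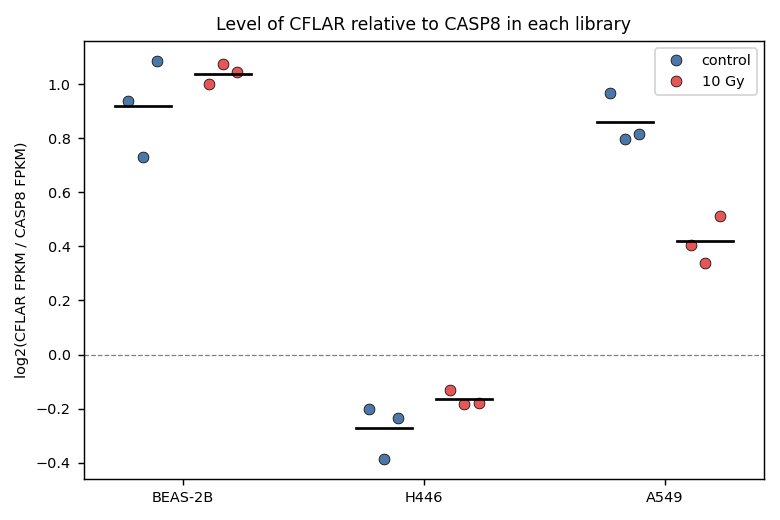
Log2 of the ratio of CFLAR to CASP8 FPKM (y axis) in each library by line (x axis), blue for control and red for 10 Gy, with a bar for the mean of 3 libraries and a dashed line where both are equal. The irradiated A549 libraries lie between 0.34 and 0.51, below the controls at 0.80 to 0.97, and all 6 H446 libraries lie below 0.

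Over the 18 libraries, each taken against the mean of its line on the log2(FPKM + 1) scale, FAS and TNFRSF10D varied together (Pearson r = 0.91, n = 18 libraries). TNFRSF10A and TNFRSF10B formed another pair (r = 0.81, n = 18), and TNFRSF10D and CFLAR ran opposite to each other (r = −0.70, n = 18). These correlations describe libraries that share lines and treatment, and neighbouring TRAIL receptor genes that may share reads. Among 8568 genes with a mean of at least 10 FPKM in a group, those most like FAS were FEZ1 (r = 0.98), TP53INP1 (0.98), TRIM22 (0.97), FDXR (0.97) and KITLG (0.97). Those most like TNFRSF10B were NR0B1 (r = 0.97), GDF15 (0.97), AEN (0.96), SERPINB5 (0.95) and ITPKC (0.95). The lists of 5 had no gene in common. TP53INP1, a p53-induced stress protein, had a log2 fold change of 1.92 in A549, 0.57 in BEAS-2B and 0.30 in H446, and GDF15, a stress cytokine, of 0.72, 2.42 and −0.59. Without BEAS-2B 10 Gy replicate 2 their BEAS-2B values were 0.95 and 3.41. Over the remaining 17 libraries the correlations of the 3 pairs were 0.91, 0.81 and −0.72, and 4 of the 5 genes most like FAS and 5 of the 5 most like TNFRSF10B stayed among the first 5.

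Another 43 genes of the pathway were fixed by role, and all were in the table. In A549, 18 of the 33 that were tested changed, 7 higher and 11 lower, against a background of 51.7%. In H446, 15 of 34 changed, 6 higher and 9 lower, against 38.4%. In BEAS-2B, 0 of 35 changed with limma (2 at an unadjusted p under 0.05), and without 10 Gy replicate 2 the only call was TNFAIP3, which encodes the NF-kB inhibitor A20 (0.58 ± 0.12, adjusted p = 0.0348). That call was lost with no filter (adjusted p = 0.166), and TNFAIP3 was not called with all 18 libraries in 1 fit (0.0819) or with a replicate block (0.109). In both of those fits the 1 pathway call was TNFRSF11B, a soluble receptor that binds TRAIL, which was lower (−0.37, adjusted p = 0.0257 and 0.0461). It stood at 6.74, 5.39 and 5.84 FPKM in BEAS-2B controls and at 4.26, 5.14 and 3.90 FPKM after irradiation. Over all genes, 861 and 439 of 11734 were called in those fits.

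Of the 6 ligand genes, 4 were at most 0.41 FPKM in any library. They were FASLG, the ligand of FAS (at most 0.08), TNF and LTA, the ligands of TNFRSF1A (at most 0.40 and 0.25), and TNFSF15 (at most 0.41). TNFSF10, which encodes TRAIL, stood at 27.05, 28.30 and 27.09 FPKM in H446 controls and at 21.36, 22.73 and 23.24 FPKM after irradiation (−0.28 ± 0.04, limma adjusted p = 0.000916). TNFSF10 was at most 0.22 FPKM in A549 and between 4.30 and 5.89 FPKM in BEAS-2B. TNFSF12, which encodes TWEAK, stood between 5.37 and 8.15 FPKM in BEAS-2B, between 4.81 and 6.31 FPKM in A549 and between 0.50 and 0.86 FPKM in H446. The ligands were named after their values were seen. Among the other receptors, TNFRSF12A, the receptor of TWEAK, fell in A549 from 127.78, 126.94 and 122.37 FPKM to 51.98, 54.18 and 52.64 FPKM (−1.23 ± 0.04, limma adjusted p = 2.28e-10). TNFRSF25, a further death receptor, rose there (0.54 ± 0.10, limma adjusted p = 0.000846). TNFRSF6B, a soluble decoy for Fas ligand, fell in H446 (−0.45 ± 0.13, limma adjusted p = 0.0234), a call lost with the GC trend removed (adjusted p = 0.218), with no filter (0.0672) or without control replicate 1 or 2 or 10 Gy replicate 1 (0.0685 to 0.0868).

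Of the 16 adaptors, kinases and ubiquitin ligases tested, 2 rose and 5 fell in A549, against 25.3% and 26.4% of all genes, and 5 rose and 6 fell in H446, against 14.8% and 23.6%. BIRC2, the ubiquitin ligase cIAP1 that keeps TNFRSF1A signalling away from caspase-8, stood at 77.77, 77.42 and 76.45 FPKM in A549 controls and at 49.29, 51.99 and 51.33 FPKM after irradiation (−0.59 ± 0.04, limma adjusted p = 1.25e-07). In H446 it rose from 15.64, 14.84 and 15.16 FPKM to 19.27, 19.07 and 18.36 FPKM (0.30 ± 0.04, limma adjusted p = 0.000655), and its neighbour BIRC3, which encodes cIAP2, rose too (0.33 ± 0.06, limma adjusted p = 0.00152). TRAF2, the adaptor that carries both cIAPs, fell in A549 (−0.58 ± 0.06, limma adjusted p = 1.52e-05) and in H446 (−0.31 ± 0.07, limma adjusted p = 0.00543). RBCK1, a subunit of the linear ubiquitin ligase, fell in A549 (−0.53 ± 0.04, limma adjusted p = 1.21e-06), and SHARPIN, another subunit, fell in H446 (−0.28 ± 0.04, limma adjusted p = 0.000763) but not with the GC trend removed (adjusted p = 0.237).

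Of the 12 genes downstream of caspase-8, 3 rose and 5 fell in A549 (25.3% and 26.4% of all genes), and 1 rose and 1 fell in H446 (14.8% and 23.6%). APAF1, the scaffold of the apoptosome, stood at 5.50, 5.26 and 4.57 FPKM in A549 controls and at 8.09, 9.40 and 9.33 FPKM after irradiation (0.70 ± 0.08, limma adjusted p = 1.36e-05). PARP1, a repair enzyme that caspases cleave, fell in H446 (−0.33 ± 0.04, limma adjusted p = 0.000156).

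**Figure D5:**
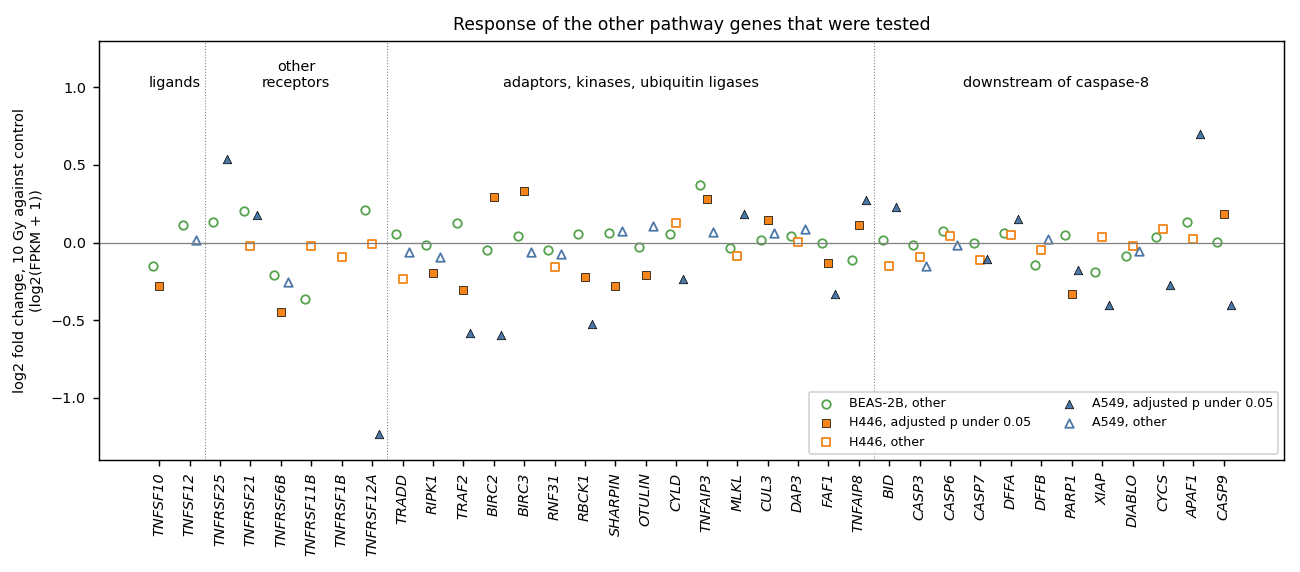
Log2 fold change of 10 Gy against control on the log2(FPKM + 1) scale (y axis) for the other pathway genes that were tested in at least 1 line (x axis, grouped by role), with filled markers for an adjusted p under 0.05. TNFRSF12A of A549 lies lowest, at −1.23, APAF1 of A549 highest, at 0.70, and no BEAS-2B marker is filled.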

How the data were processed

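Human BEAS-2B, H446 and A549 cells were sampled as 3 control and 3 irradiated libraries per line, grouped from the sample labels. Per the methods and labels, the authors prepared poly(A) libraries, read 50 bases from 1 end with a BGISEQ-500 sequencer, and deposited a single table of values per gene and library. The deposited values were taken as FPKM, which the authors' processing scales by transcript length and mapped reads. The unit was inferred from 2 decimals and library totals of 461255 to 529936. The submitters' processing notes name HISAT2 2.0.4, Bowtie2 2.2.5, RSEM 1.2.12 and the build hg38. Total depth is unknown, so no counting interval is given.

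Values were transformed to log2(FPKM + 1), and genes reaching 1 FPKM in 3 or more of the 6 libraries of a line were tested with limma 3.58.1 (lmFit, eBayes with trend) in R 4.3.3. Calls are adjusted p-values under 0.05 (Benjamini-Hochberg over all genes tested). Differences between lines came from a single model of the 18 libraries with a mean for each of 6 groups, over 13071 genes. Ratios and shares were compared with exact 2-sided permutation tests over libraries, which cannot go below 0.1. The fits were tested on simulated data. The methods state in general that experiments were done 3 or more times, but no source used here says whether the 3 libraries of a group came from separate cultures, so p-values measure the spread between these libraries, which may be technical.

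All 10 genes are named. Of the 43 other pathway genes, up to 6 called genes per line with the largest change are named, and in BEAS-2B the same without 10 Gy replicate 2. Likeness is the Pearson correlation over 18 libraries after the mean of the line was taken off. The genes and lists were chosen with earlier results of these data known. Alternatives were quantile normalization, equal totals, removal of a loess trend on GC content (span 0.5), no limma trend, library quality weights, no filter, a filter in every library, a pseudocount of 0.1, all 18 libraries in 1 fit, a replicate block, and each library left out in turn. The table had no reads to map, so strand and shared reads of related genes could not be checked. Some marker genes are not reported here. Figures were drawn with matplotlib 3.10.9.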

Additional observations from a re-analysis of the deposited data

Results flagged for a closer look

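The 17 differences in response between lines that passed the limma test in the fit of 18 libraries are listed here as log2 differences, with no explanation weighed. They rest on 3 libraries per group, and the 3 comparisons share libraries. The fit takes a single spread per gene over the lines, so errors of differences that involve BEAS-2B may be too small. TNFRSF10C entered the fit only through the irradiated BEAS-2B libraries, so its 2 differences were fixed by the filter and support nothing. BEAS-2B responded more than H446 for TNFRSF10C (1.03), TNFRSF10D (0.54), TNFRSF10A (0.48), TNFRSF10B (0.40) and TNFRSF1A (0.34). BEAS-2B responded more than A549 for TNFRSF10C (0.81), TNFRSF10A (0.59), TNFRSF10B (0.34) and CFLAR (0.33), and less for TNFRSF10D (−0.96), FAS (−0.84) and CASP8 (−0.22). A549 responded more than H446 for TNFRSF10D (1.50), FAS (1.11), CASP10 (0.41) and TNFRSF1A (0.34), and less for CFLAR (−0.45). With all 18 libraries TNFRSF10D, a decoy receptor gene, differed in all 3 comparisons and no other member did, but its difference between BEAS-2B and H446 was lost without H446 10 Gy replicate 3 (limma adjusted p = 0.0517). Without BEAS-2B 10 Gy replicate 2, FAS differed in all 3 as well (0.56, −0.55 and 1.11). That library was singled out by p53 targets, and FAS is 1 of them, so nothing is read from this. Without BEAS-2B 10 Gy replicate 3 the FAS difference between BEAS-2B and H446 was 0.0093 and was not called. In A549 TNFRSF10D rose beside FAS, whereas the death-inducing receptor genes TNFRSF10A and TNFRSF10B were not called higher there.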

How the results depend on the processing

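No called log2 fold change or difference changed sign under any alternative run, and 16 of the 68 calls followed were lost under at least 1 of them. The 68 include CDKN1A, MDM2, pathway genes named for their large changes, level differences between control groups and TNFRSF10C. A gene no longer tested under an alternative was not counted as lost. The share lost therefore does not measure how stable the responses of the members were. In BEAS-2B the count of members called went from 0 to 6 with library quality weights and to 3 with a replicate block. It was 3 with all 18 libraries in 1 fit and 2 with no filter and without 10 Gy replicate 2. The count of other pathway genes went from 0 to 13, 1 and 1 with the first 3 of these settings and was 0 with the last. Over all genes, 6780, 439 and 861 of 11734 were called with the first 3 and 152 of 16983 with the last. The weights of BEAS-2B did not converge, and 10 Gy replicate 1 alone took a weight of 14.3, so those 6 and 13 calls are not usable. The weights of the 18 libraries in 1 fit did not converge either, so values between lines with weights are not usable. Member counts that involve BEAS-2B include TNFRSF10C where it was tested, and it is 1 of the 3 called with the block and in the fit of 18 libraries. In H446 the members called went from 4 to 2 with the GC trend removed, 1 with no filter and 1 with all 18 libraries in 1 fit. Over all genes, 3694 of 11479, 3712 of 17066 and 3228 of 11479 were called in these fits. Leaving out each library in turn gave 0 to 3 members in BEAS-2B, 1 to 4 in H446 and 6 to 7 in A549, and 0 to 1, 10 to 15 and 16 to 18 other pathway genes. Over all genes it gave 0 to 233, 3201 to 4709 and 5381 to 5713 calls. The genes tested were 11669 to 11689, 11398 to 11442 and 11883 to 11944. Leaving out each library gave 4 to 5, 5 to 8 and 5 members with a different response for BEAS-2B against H446, BEAS-2B against A549 and A549 against H446. Same-numbered libraries had correlations of −0.13, 0.32 and 0.31 in BEAS-2B, 0.19, 0.01 and 0.08 in H446, and 0.01, −0.05 and −0.10 in A549. The highest in BEAS-2B, 0.38, was between control replicate 1 and 10 Gy replicate 3. With 3 libraries per group these values cannot show whether the numbers pair the libraries. Calls gained or lost under the block are therefore not read as stronger or weaker effects. Values near 0 that were not called changed sign as follows, and the cause was not tested. FADD in BEAS-2B became 0.011 with equal totals and 0.014 with no filter and without 10 Gy replicate 2, and in A549 0.030 with quantile normalization and 0.015 with weights. In H446, CASP8 became −0.024 with the GC trend removed and CASP10 0.036 with quantile normalization. The response of BEAS-2B minus H446 for FADD became −0.036 with the GC trend removed. That of BEAS-2B minus A549 became −0.025, −0.077 and −0.060 for TNFRSF1A (quantile, GC, no filter without the library) and −0.052, −0.082 and −0.041 for FADD (quantile, GC, weights). The control difference of H446 minus BEAS-2B became 0.033 for TNFRSF10C with quantile normalization and 0.057 for FADD with equal totals. With each library left out in turn, the ranges that crossed 0 were −0.034 to 0.085 for CFLAR and −0.052 to 0.036 for FADD in BEAS-2B, −0.11 to 0.12 for CASP10 in H446, −0.091 to 0.094 for FADD in A549, and −0.060 to 0.095 for TNFRSF1A and −0.098 to 0.087 for FADD in the response of BEAS-2B minus A549.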
